A study of Mus musculus with 18 samples.

Results

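Alox12, Nosip, Haao and 1110069O07Rik were examined as genes from the study's list of transcripts with lower signal in mouse strains resistant to anti-glomerular basement membrane (anti-GBM) nephritis. They were taken by their symbol, which found 4 of 34509 gene symbols and 8 of 46643 probes: 2 for Alox12, 2 for Nosip, 3 for Haao and 1 for 1110069O07Rik. RNA of the kidney cortex was read on Illumina mouse BeadChips in 15 mice aged 2 months, 3 each of B6 and BALB/C, classed as resistant, and of DBA1, 129/svj and NZW, classed as sensitive. Every mouse had been challenged with anti-GBM antibody and none was left unchallenged, so that strain differences before the challenge and in the response to it cannot be told apart. Mouse 1 of BALB/C, DBA1 and 129/svj had a second array, which was averaged with the first. Each strain is one inbred genotype, so a class of strains is represented by 2 or 3 genotypes only.

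The arrays were deposited in 2 tables that differ in signal level, one with BALB/C, DBA1 and 129/svj and the other with B6 and NZW. The median deposited signal was 118 to 152 in the former and 81.1 to 89.8 in the latter, and each array detected 30.5% to 36.4% of its probes, that is, gave them a detection p of 0.05 or less against the negative control beads. Levels below are log2 signals after background correction and joint normalization, given as mean ± SD over 3 mice, and levels set across the tables carry the table as well as the strain. Of the 4 proximal tubule markers tested, Slc34a1, a phosphate transporter, had a mean of 14.01. Lrp2, the endocytic receptor megalin, had 13.31 and Kap 12.72. Cubn was weaker at 8.21, with 6.18 in B6 and 6.77 in NZW.

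Alox12 is the platelet-type arachidonate 12-lipoxygenase, which adds oxygen to arachidonic acid and yields 12-HETE, a lipid mediator of inflamed tissue. Nosip binds nitric oxide synthases and lowers their activity by moving them within the cell, and Haao is a dioxygenase of tryptophan breakdown whose product goes on to quinolinate and NAD. 1110069O07Rik is listed in RefSeq as a synonym of Sec14l3, a member of the SEC14-like family of lipid-binding proteins.

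All 8 probes had a partner in the other table and passed the detection filter, but not to the same extent. Of these, 6 were detected on all 18 arrays. Probe ILMN_2607951 of Haao was detected on 15 arrays, and probe ILMN_2587600 of Alox12 on 3, all of them B6 or NZW. Because the genes had been picked for their difference between resistant and sensitive strains, that difference is described here without a test. The contrast between DBA1 and 129/svj, both sensitive and read in the same table, was not used to pick them and was tested with limma.

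Alox12 had its highest signal in DBA1. With probe ILMN_2613908 the 3 DBA1 mice read 10.26, 9.71 and 9.79, the NZW mice 8.48, 8.34 and 8.22, and the 129/svj mice 8.03, 8.27 and 7.71. The B6 mice read 7.62, 7.35 and 7.57, and the BALB/C mice 7.24, 7.61 and 7.50. All 9 sensitive mice lay above all 6 resistant mice, the only member probe for which that held. The margin was narrow, from 129/svj mouse 3 at 7.71 to B6 mouse 1 at 7.62 and BALB/C mouse 2 at 7.61. Repeat arrays of the same mouse differed by up to 0.67 with this probe. How many of all tested probes part the classes in this way was not counted. Nothing is therefore read from this count or from those of the other members below. The sensitive strains exceeded BALB/C by 1.51 in their table and NZW exceeded B6 by 0.83 in theirs, a mean of 1.17 or 2.25-fold. In this contrast 384 of 6906 tested probes (5.56%) were called higher in sensitive strains, and as the gene was picked on it, nothing is read from that share. B6 (7.52 ± 0.14) and BALB/C (7.45 ± 0.19) overlapped, as did NZW (8.35 ± 0.13) and 129/svj (8.0 ± 0.28), while DBA1 (9.92 ± 0.30) stood apart from every other strain.

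DBA1 mice had 3.77-fold more Alox12 signal than 129/svj mice, a difference of 1.92 (SE 0.18, 95% interval 1.54 to 2.29, limma, adjusted p = 1.9e-06). All 3 DBA1 mice exceeded all 3 129/svj mice. With the methods' t-test in place of limma the adjusted p was 0.064, not past the threshold. In this contrast 508 of 6906 probes (7.36%) were called, 257 (3.72%) higher in DBA1 and 251 (3.63%) higher in 129/svj, and 5 of the 8 member probes were among them. In size the Alox12 difference ranked 84. Only 7 probes, this one included, had a DBA1 mean as far above the highest other strain (1.57 or more). Among macrophage markers, of which Cd14, the lipopolysaccharide co-receptor, was the single one tested in all strains, DBA1 also exceeded 129/svj, by 1.75 (SE 0.49, limma, adjusted p = 0.04). The Cd14 signal after background correction and normalization, off the log scale, spanned 592 to 1490 in DBA1 and 135 to 787 in 129/svj. Of the platelet markers, Treml1 was the only one tested, and it lay near background at 4.85 in DBA1 and 4.83 in 129/svj. Whether macrophages or platelets have a part in the Alox12 difference was not tested. In whole cortex, more cells that carry a transcript and more transcript per cell cannot be told apart.

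The repeat arrays show how well a single Alox12 reading holds. The arrays of DBA1 mouse 1 read 10.23 and 10.29, those of 129/svj mouse 1 read 7.83 and 8.24, and those of BALB/C mouse 1 read 6.91 and 7.58. The last gap, 0.67, was the widest of the 24 repeat pairs of the member probes and exceeded the SD between BALB/C mice. The other Alox12 probe, ILMN_2587600, was detected in 2 NZW mice and 1 B6 mouse and in no mouse of BALB/C, DBA1 or 129/svj, where it read 4.74 to 5.29. It did not follow the DBA1 excess of the first probe, and since neither DBA1 nor 129/svj was detected, no fold between them is given.

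**Figure D1:**
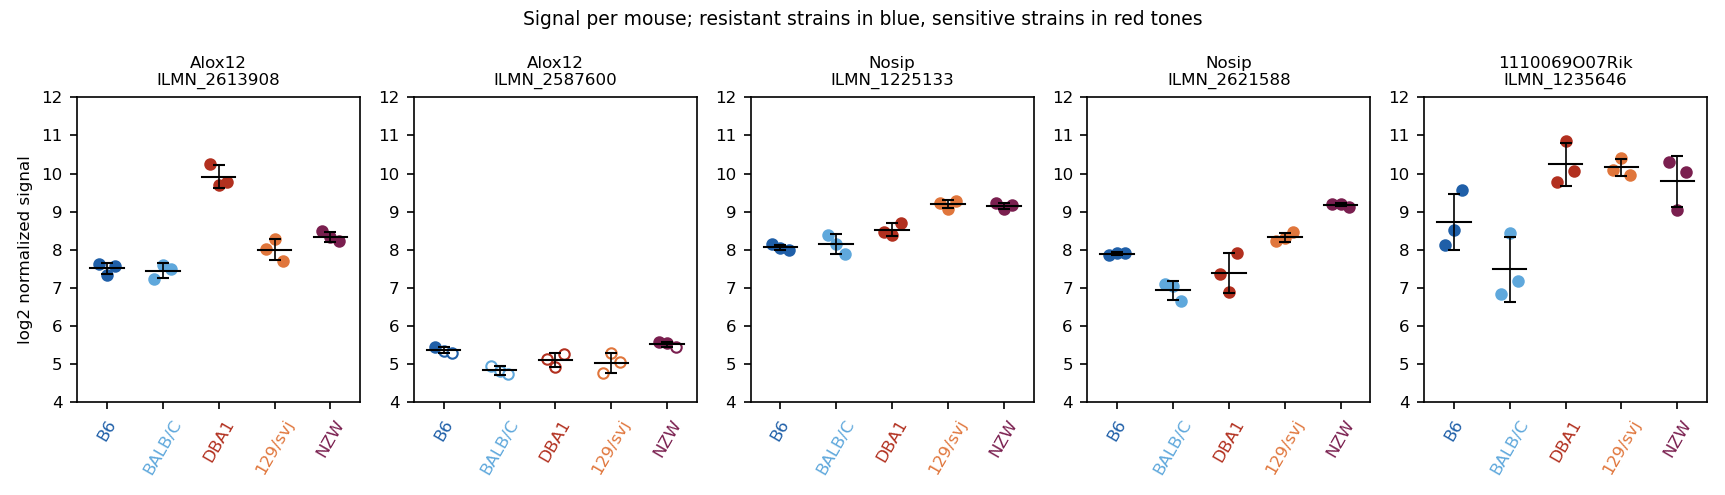
Log2 normalized signal (y axis) of the probes of Alox12, Nosip and 1110069O07Rik in each mouse by strain (x axis). Filled points are mice in which the probe was detected, open points mice in which it was not, and bars give the mean ± SD of 3 mice. DBA1 leads for Alox12 probe ILMN_2613908 (9.92 ± 0.30), whereas 129/svj and NZW lead for both Nosip probes.

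The promoter of Alox12 is shown because it was the only member promoter that held one of the motifs searched. In RefSeq's GRCm38.p6 the 250 bases before the start of Alox12 lie on the minus strand at chr11:70255371-70255620 and contain 54.0% G and C, against a median of 52.4% over all promoters. Capitals mark the GC box GGGCGG, present 2 times.
Alox12: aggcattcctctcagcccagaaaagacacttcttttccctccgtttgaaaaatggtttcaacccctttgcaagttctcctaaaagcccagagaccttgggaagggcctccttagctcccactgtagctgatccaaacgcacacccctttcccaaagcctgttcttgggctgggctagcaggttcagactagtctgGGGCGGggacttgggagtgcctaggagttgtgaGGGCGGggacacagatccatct
The Nosip window, on the plus strand at chr7:45062179-45062428, has 52.4% G and C and is shown beside it because the Nosip difference between DBA1 and 129/svj, given next, runs the opposite way.
Nosip: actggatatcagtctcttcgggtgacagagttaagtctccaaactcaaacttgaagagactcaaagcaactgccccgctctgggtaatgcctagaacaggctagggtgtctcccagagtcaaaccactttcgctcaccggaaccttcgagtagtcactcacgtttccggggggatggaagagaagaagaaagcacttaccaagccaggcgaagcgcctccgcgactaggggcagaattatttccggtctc
Both strands were searched for 6 motifs, and none of them overlapped another in these windows. Of 32851 promoter windows of the same length, 32.7% held the GC box, 33.8% the CCAAT box (CCAAT) and 12.4% the TATA box (TATAAA). The antioxidant response element (TGACNNNGC, where N is any base) stood in 10.2%, the Ets site (CCGGAAG) in 6.91% and the E-box (CACGTG) in 6.02%. None of the 6 occurred in the windows of Nosip, Haao and Sec14l3. The reference is the sequence of C57BL/6J, and the other strains may differ in these bases.

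Nosip was highest in 129/svj and NZW and lower in DBA1. With probe ILMN_1225133 the 129/svj mice read 9.23, 9.08 and 9.29 and the NZW mice 9.23, 9.07 and 9.17. The DBA1 mice read 8.47, 8.39 and 8.71, against 8.40, 8.15 and 7.88 in BALB/C and 8.14, 8.05 and 8.0 in B6. Thus 8 of 9 sensitive mice lay above all resistant mice, and DBA1 mouse 2 fell just below BALB/C mouse 1. The sensitive strains exceeded the resistant strains by 0.91, or 1.87-fold, with 0.72 in the table of BALB/C and 1.09 between NZW and B6. 129/svj and NZW overlapped, as did DBA1 with BALB/C and BALB/C with B6.

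The second Nosip probe, ILMN_2621588, kept this order within each table. It read 8.22, 8.30 and 8.46 in 129/svj, 7.36, 6.88 and 7.92 in DBA1 and 7.11, 7.05 and 6.65 in BALB/C. NZW read 9.21, 9.20 and 9.13 and B6 7.86, 7.91 and 7.92. Within tables the sensitive strains exceeded BALB/C by 0.92 and NZW exceeded B6 by 1.28, a mean of 1.10 or 2.14-fold. Across tables the order broke down: DBA1 overlapped B6, and 6 of 9 sensitive mice lay above all resistant mice.

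DBA1 had less Nosip signal than 129/svj with both probes. The difference was -0.67 (SE 0.14, 95% interval -0.98 to -0.37, limma, adjusted p = 0.0065) with ILMN_1225133 and -0.94 (SE 0.20, 95% interval -1.37 to -0.51, limma, adjusted p = 0.0080) with ILMN_2621588. These are 1.60-fold and 1.92-fold, and with each probe all 3 DBA1 mice lay below all 3 129/svj mice. Fitted on the table of these strains alone, with 15818 probes tested, the differences were -0.65 and -0.90 and missed the threshold (limma, adjusted p = 0.061 and 0.076), as they did with the methods' t-test (adjusted p = 0.138 and 0.412). The main fit took the spread from the mice of all strains. With ILMN_2621588 the SD was 0.52 in DBA1, 0.12 in 129/svj and 0.25 in BALB/C, but 0.04 in both B6 and NZW. The SE of this probe was 0.24 in the table alone and 0.31 with the t-test, and that of ILMN_1225133 0.17 and 0.11. DBA1 mouse 2 was the lowest and DBA1 mouse 3 the highest of its strain with both probes. The BALB/C mice also kept their order between the probes. In 129/svj and NZW the lowest mouse was not the same with both, and in B6 the order was reversed.

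The agreement of the Nosip probes depended on the table. Their within-mouse difference, ILMN_1225133 minus ILMN_2621588, was 1.2 in BALB/C, 1.14 in DBA1 and 0.87 in 129/svj, but 0.17 in B6 and -0.02 in NZW. Which B6 and NZW probe belongs with which probe of the other table had been settled by the shared accession and by closeness to the signals that the study lists for B6 and NZW, and not by a shared search key. Differences within a table do not rest on this pairing. Between DBA1 and 129/svj the probe difference moved by 0.26 (SE 0.22, exact permutation test over mice, two-sided, p = 0.3).

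Haao gave a different answer with each probe, and DBA1 was the strain that set them apart. DBA1 was high with ILMN_2459219, the probe on the study's list, level with BALB/C and 129/svj with ILMN_2600365, and near background with ILMN_2607951. The label of a gene higher in sensitive strains therefore held for 1 of the 3 Haao probes, and weakly.

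With ILMN_2459219 the DBA1 mice read 10.13, 9.84 and 9.37, the NZW mice 9.71, 9.52 and 9.70, and the B6 mice 9.29, 9.43 and 9.43. The 129/svj mice read 8.97, 9.13 and 8.50 and the BALB/C mice 8.64, 8.78 and 8.67. Resistant B6 thus stood above sensitive 129/svj, although across tables, and 129/svj overlapped BALB/C. The difference between sensitive and resistant strains was 0.45, or 1.36-fold, made of 0.63 and 0.26 in the respective tables. DBA1 exceeded 129/svj by 0.92 (SE 0.19, 95% interval 0.52 to 1.32, limma, adjusted p = 0.0051), or 1.89-fold, with no overlap. In the fit on their own table the difference was 0.88 at an adjusted p of 0.0503 (limma), and with the methods' t-test the adjusted p was 0.394.

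With ILMN_2600365 the DBA1 mice read 9.64, 9.20 and 8.57, spread around the 9.13, 9.20 and 9.22 of BALB/C and the 9.22, 9.48 and 8.86 of 129/svj. NZW read 10.26, 10.21 and 10.10 and B6 9.91, 10.05 and 10.13. Strains of the same table overlapped throughout. The difference between sensitive and resistant strains was 0.07, and that between DBA1 and 129/svj -0.05 (SE 0.21, 95% interval -0.51 to 0.41, limma, adjusted p = 0.96), an interval that leaves room for a change of either sign.

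With ILMN_2607951 the DBA1 mice read 5.04, 5.76 and 5.03, and the probe was detected in mouse 2 only (detection p of 0.0371). The 129/svj mice read 10.61, 10.61 and 9.98 and the BALB/C mice 10.00, 10.35 and 10.30. B6 read 11.09, 11.00 and 11.24 and NZW 11.13, 11.31 and 11.30. The DBA1 mice lay below all mice of the other strains. Of 3423 probes detected in all 12 mice of the other strains, 36 were detected in at most 1 DBA1 mouse. Because of DBA1, the mean over sensitive strains fell below that over resistant strains with this probe, by a difference of -1.12, while NZW and B6 differed by 0.14 and overlapped.

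DBA1 fell below 129/svj by -5.12 (SE 0.21, 95% interval -5.56 to -4.68, limma, adjusted p = 2.2e-10) with ILMN_2607951. As 2 of 3 DBA1 mice were not detected, the fold is a bound. With the offset of 16 and each DBA1 array set no lower than its dimmest detected probe, 129/svj was at least 26.5-fold higher. The fitted size depended on the background correction. It was -4.24 with an offset of 50 and -3.56 on uncorrected signals, and the call was kept in both (limma, adjusted p = 2.6e-10 and 2.1e-10). Both sizes are smaller than the 4.73 on the log2 scale behind the 26.5-fold, so that bound holds for the offset of 16 only.

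**Figure D2:**
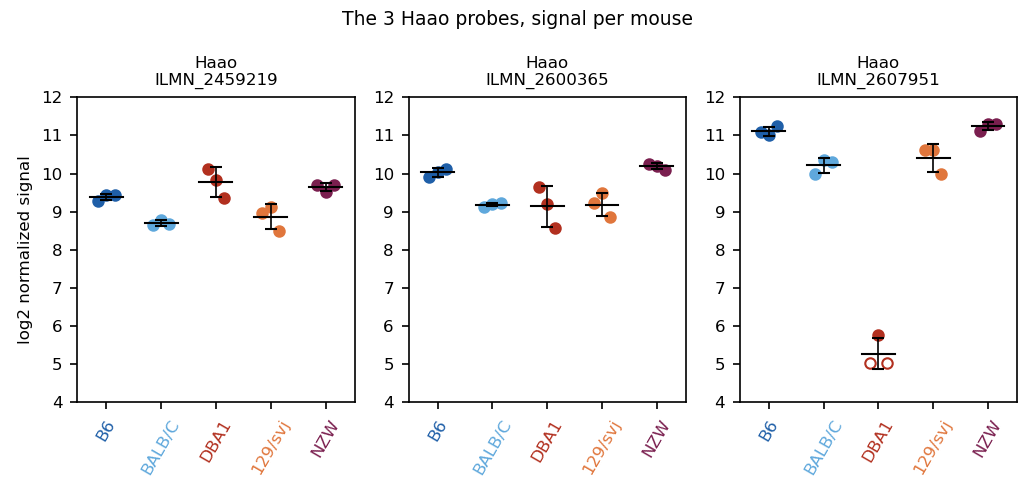
Log2 normalized signal (y axis) of the 3 Haao probes in each mouse by strain (x axis), with the mean ± SD of 3 mice. Open points are mice in which the probe was not detected. DBA1 has the highest mean with ILMN_2459219 (9.78), overlaps 129/svj with ILMN_2600365 (9.14) and lies near background with ILMN_2607951 (5.28).

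The 3 Haao probes stood in another relation to one another in DBA1 than in the other strains. The within-mouse difference of ILMN_2459219 minus ILMN_2607951 was -1.73 in B6, -1.52 in BALB/C, -1.53 in 129/svj and -1.60 in NZW, but 4.51 in DBA1. For ILMN_2459219 minus ILMN_2600365 it was -0.65, -0.49, -0.32 and -0.55 in the same strains and 0.65 in DBA1. For ILMN_2600365 minus ILMN_2607951 it was -1.08, -1.03, -1.21 and -1.05, and 3.86 in DBA1. The other strains were not all alike, since with ILMN_2459219 minus ILMN_2600365 the 129/svj mice (-0.37 to -0.26) did not overlap the BALB/C mice (-0.54 to -0.42). The DBA1 values that use ILMN_2607951 depend on the floor and have no exact size. These values show an unequal change of the probes and not that any of them stayed the same. From 129/svj to DBA1 the difference of ILMN_2459219 and ILMN_2600365, detected in all mice, moved by 0.97 (SE 0.10). None of the 3 differences, which share probes and so are not independent, overlapped between the mice of these strains. Each gave p = 0.1 in a two-sided exact permutation test over mice, the smallest that 3 against 3 allows, and 0.125 after Benjamini-Hochberg adjustment over the 5 probe pairs compared. The order of the DBA1 mice was the same with ILMN_2459219 and ILMN_2600365, mouse 1 being highest and mouse 3 lowest. The file assigns all 3 probes to Haao on chromosome 17, and their sequences were not analysed here.

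1110069O07Rik had the largest difference between the classes of any member probe, and SDs between mice of a strain from 0.23 in 129/svj to 0.85 in BALB/C. Its probe, ILMN_1235646, read 9.78, 10.86 and 10.08 in DBA1, 10.09, 10.42 and 9.97 in 129/svj and 10.30, 9.04 and 10.04 in NZW. B6 read 8.12, 8.51 and 9.56 and BALB/C 6.84, 8.45 and 7.18. Of 9 sensitive mice 8 lay above all resistant mice, and NZW mouse 2 lay below B6 mouse 3. The difference was 1.89, or 3.70-fold. It was 2.71 in the table of BALB/C, where the sensitive mice lay clear of BALB/C, and 1.07 between NZW and B6, which overlapped.

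DBA1 and 129/svj could not be told apart for this gene, with a difference of 0.08 (SE 0.45, 95% interval -0.87 to 1.03, limma, adjusted p = 0.98). The interval includes changes of up to about 1 on the log2 scale in either direction. A separate probe filed under Sec14l3 itself, ILMN_1241255, was present in the table of B6 and NZW, where it was read without normalization. Its deposited signal was 234, 130 and 172 in the NZW mice and 102, 105 and 135 in the B6 mice. The 1110069O07Rik probe gave 1923, 771.6 and 1235 in the same NZW mice and 421.1, 530.7 and 916.7 in the same B6 mice. Both probes ranked the 6 mice identically, including B6 mouse 3 above NZW mouse 2. The Sec14l3 probe was only just detected in B6 mice 1 and 2 (detection p of 0.0455 and 0.0362), so its lowest ranks lie near background.

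**Figure D3:**
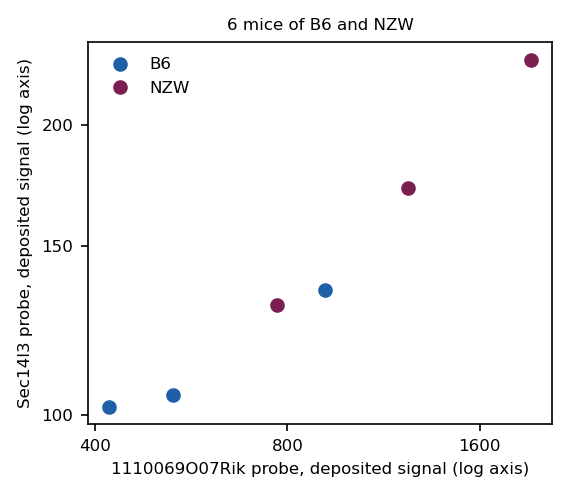
Deposited signal of the probe filed under Sec14l3 (y axis) against that of the 1110069O07Rik probe (x axis) in the 3 B6 and 3 NZW mice, both on log axes. The mice take the same order with both probes, from B6 mouse 1 (102 and 421.1) to NZW mouse 1 (234 and 1923).

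The 4 genes thus did not share a pattern among the sensitive strains. Between DBA1 and 129/svj, Alox12 and the listed Haao probe were higher in DBA1, both Nosip probes were higher in 129/svj, and 1110069O07Rik did not pass the test. Over all tested probes the median difference in this contrast was 0.003.

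**Figure D4:**
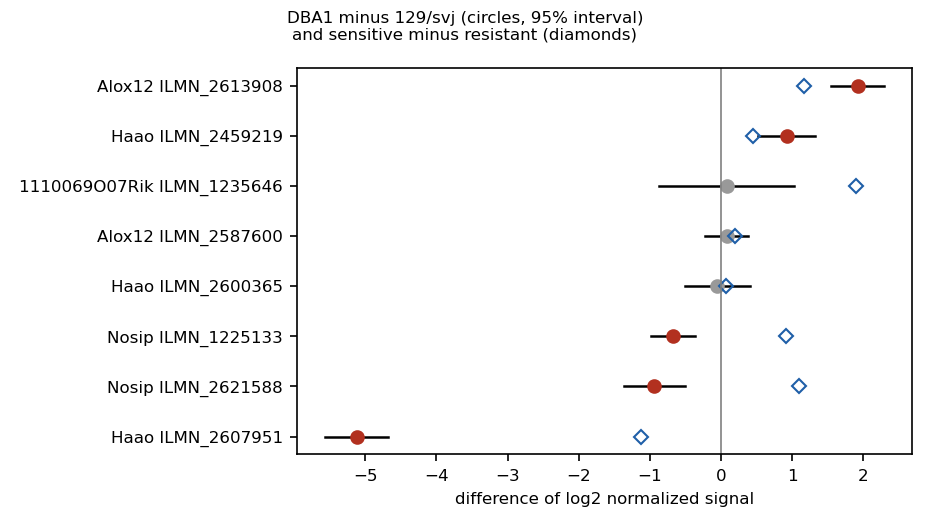
Differences of log2 normalized signal (x axis) for the 8 probes (y axis). Circles give DBA1 minus 129/svj with the 95% interval, red where the adjusted p of limma was below 0.05 and grey otherwise, and open diamonds give the mean of the sensitive strains minus that of the resistant strains, which is shown without a test because the genes were chosen on it. Alox12 ILMN_2613908 (1.92) and Haao ILMN_2607951 (-5.12) mark the ends, the latter near the detection floor in DBA1, and Alox12 ILMN_2587600 was detected in neither strain.

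For each member probe the most similar probes of other genes were sought by the correlation over 15 mice after centring each table on its mean. These values rest on the same arrays and strains and are a description only. Alox12 probe ILMN_2613908 was closest to 2610305D13Rik (0.944), E230006M18Rik (0.932) and Haao probe ILMN_2459219 (0.930). That Haao probe was in turn closest to Alox12, to 2900011O08Rik (0.928) and to Scoc (0.918), a coiled-coil protein, and all of these were highest in DBA1. Haao probe ILMN_2607951 was closest to Papss2 (0.991), which makes the sulfate donor of the cell, and LOC100048803 (0.989). Papss2 read 4.96 in DBA1 and 11.40 to 12.40 in the other strains, so it shared the DBA1 floor. Haao probe ILMN_2600365 was closest to Tcea3 (0.908), Ak3l1 (0.900) and Slc12a7 (0.899). Both Nosip probes were closest to LOC631037 (0.954 and 0.940) and shared A730050C11Rik (0.935 with each). Hyi (0.942), a hydroxypyruvate isomerase, completed the list of ILMN_1225133, and a probe whose symbol names no gene (ILMN_1231344, 0.922) that of ILMN_2621588. 1110069O07Rik was closest to X83328 (0.893), Evc2 (0.892) and Proc (0.888), the anticoagulant protein C. The dim Alox12 probe was closest to 1520402A20Rik (0.886), 6430519P13Rik (0.861) and Fance (0.861).

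Few of the other genes of these pathways had a probe matched between the tables. Of 25 eicosanoid genes in the table of B6 and NZW 8 were tested, of 22 nitric oxide genes 4, and of 20 genes from tryptophan to NAD 3. The median difference between sensitive and resistant strains was 0.07, -0.15 and 0.09 in these lists, where 841 of 6906 probes (12.2%) were called in all and 457 (6.62%) higher in resistant strains, and that between DBA1 and 129/svj was -0.17, 0.00 and 0.03. In either contrast, 1 eicosanoid gene, 1 nitric oxide gene and 0 tryptophan genes were called. Each was lower in sensitive strains in the mean of both within-table differences, unlike Alox12 and Nosip, but the nitric oxide gene only through NZW. With strain as a random block, 119 probes in place of 841 were called between the classes.

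The eicosanoid gene was Cbr1, a carbonyl reductase that acts on prostaglandins. It was lower in sensitive strains by a difference of -1.30 (SE 0.10, limma, adjusted p = 3.2e-07) and lower in DBA1 than in 129/svj by -1.14 (SE 0.15, limma, adjusted p = 9.9e-05), the reverse of Alox12. The nitric oxide gene was Ddah2, which breaks down a natural inhibitor of nitric oxide synthases. It differed by -1.41 between the classes (SE 0.10, limma, adjusted p = 1.2e-07), which came from NZW alone at 5.20, against 8.32 to 9.36 in the other strains. In the other table sensitive DBA1 (8.79) and 129/svj (9.36) had higher means than resistant BALB/C (8.32). With the random block Cbr1 stayed called (limma, adjusted p = 0.00893) and Ddah2 did not (limma, adjusted p = 0.444). Ddah2 was also lower in DBA1 than in 129/svj, by -0.57 (SE 0.15, limma, adjusted p = 0.025), the direction of Nosip. Aadat, Acmsd and Nmnat1, the tested genes around Haao, had differences of 0.31, -0.34 and 0.09 between the classes, none past the threshold.

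More pathway genes could be read between NZW and B6 in their own table, a comparison added after the values had been seen. There 3161 of 16766 probes (18.9%) were called, 1611 (9.61%) higher in NZW and 1550 (9.24%) higher in B6. With scaling to the 75th percentile these became 2269 (13.5%) and 1352 (8.06%), as the median of all probes moved from 0.042 to 0.129. Of 18 eicosanoid genes, 0 were higher in NZW and 2 in B6, namely Cbr1 (-1.53, SE 0.11, limma, adjusted p = 2.5e-05) and Alox5ap (-0.83, SE 0.14, limma, adjusted p = 0.0042), which presents arachidonate to 5-lipoxygenase. Of the other lipoxygenases, Alox12b (0.07) and Alox8 (-0.06) were not past the threshold, and Alox5, Alox15, Alox12e and Aloxe3 did not reach detection in 3 of these 6 mice, nor did Ptgs2. With the 75th percentile, Tbxas1 (0.50) and Ephx1 (0.41) were called higher in NZW as well.

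Of 18 nitric oxide genes, 1 was higher in NZW and 3 in B6 in the same comparison. Ass1, which leads to arginine, was higher in NZW by 0.68 (SE 0.13, limma, adjusted p = 0.0062). Ddah2 (-4.01), Qdpr (-2.13), which regenerates the synthase cofactor tetrahydrobiopterin, and Ddah1 (-0.42) were higher in B6, Ddah1 only with quantile normalization. The endothelial synthase Nos3 differed by 0.13 (SE 0.12, limma, adjusted p = 0.49), and Nos1 and Nos2 did not pass the detection filter.

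Of 11 genes from tryptophan to NAD 3 were higher in NZW and 0 in B6, with a median of 0.36. They were Qprt (1.83, SE 0.13, limma, adjusted p = 1.8e-05), which takes up quinolinate downstream of Haao, Afmid (0.83, SE 0.13, limma, adjusted p = 0.0022), an early step of the pathway, and Nadsyn1 (0.53, SE 0.12, limma, adjusted p = 0.014), the last step to NAD. Aadat and Naprt1 joined them with the 75th percentile scaling. Tdo2, Ido1 and Ido2, the enzymes of the first step, did not pass the detection filter.

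Markers of other cells are given for the same pair of strains. Of 6 macrophage, 7 neutrophil, 6 lymphocyte, 7 endothelial and 2 platelet genes tested between NZW and B6, 0 were called at the adjusted threshold of limma with quantile normalization, and with the 75th percentile 1 macrophage gene, Emr1, was lower in NZW (-0.47, limma, adjusted p = 0.043). The platelet genes Itga2b, Gp1bb, Gp5, Gp9 and Clec1b did not pass the detection filter. Among tubule markers Pvalb, of the distal convoluted tubule, was lower in DBA1 than in 129/svj by -2.37 (SE 0.65, limma, adjusted p = 0.035). It was the only 1 called of 6 distal tubule and collecting duct genes tested there. Slc12a3, of the same list, differed by 0.16 (SE 0.26, limma, adjusted p = 0.86). Between NZW and B6, Pvalb was higher in NZW by 2.38 (SE 0.23, limma, adjusted p = 0.00015). Slc12a3, read with another probe, was lower there by -1.46 (SE 0.13, limma, adjusted p = 0.00012). The part of these markers in the differences of the member genes was not tested.

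The chromosomal neighbours gave little to set beside the members. Of the 10 nearest genes in RefSeq around each member, 0 were tested for Alox12 and Haao and 3 each for Nosip and Sec14l3. Only Fcgrt, the neonatal Fc receptor gene near Nosip, was called between DBA1 and 129/svj, with a difference of -0.75 (limma, adjusted p = 0.00079), the direction of Nosip. Scaf1 (0.06), on the other side of Nosip, was not past the threshold.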

How the data were processed

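Kidney cortex RNA of 15 mice was read on 18 arrays. Per the labels, arrays were Illumina Mouse WG-6 v1 BeadChips analysed in BeadStudio, and repeat arrays are named as such. The authors deposited signal intensity values without normalization, each with a detection p-value and bead data, in 2 tables. All signal columns belonged to samples of the study (0 did not). The member probes were read on 19 to 82 beads per array, with a standard error over beads of 1.61% to 9.28% of the signal, and the number of arrays limits the precision.

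Probes were paired by a search key unique in both tables (19886 pairs), and 10 pairs were added through the study's supplementary list, among them the first Alox12 probe and both Nosip probes. Background was removed by normexp in limma, based on the detection p-values (offset 16). The 19896 pairs were then quantile normalized together and put on the log2 scale. The 6906 probes with a detection p up to 0.05 in 3 or more mice entered the fit. limma 3.58.1 in R 4.3.3 was fitted with lmFit and eBayes, 1 coefficient per strain, with p-values adjusted by Benjamini-Hochberg and a threshold of 0.05. Where a gene of a list had several probes, the brightest was used. Sensitive minus resistant is the mean of both within-table differences. Python 3.11.15 with pandas 2.3.3 read the tables. The fit was tested on simulated data. Gene symbols follow the B6 and NZW table and may be outdated.

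The genes, the gene lists and the tests were chosen with earlier results of these data known. Named genes are each member probe, list genes past the threshold (up to 5 per list and contrast), the 3 most similar probes of other genes and called neighbours, and other genes named were chosen after their values were seen. Alternatives covered background, offset, normalization, filter, repeat arrays, replicate number, variance model, each mouse left out, strain as a random block, the table alone and the methods' t-test. The replicate number was not used as a block, since same-numbered mice did not deviate together (pairwise r of -0.223 to 0.355). Probe sequences were not analysed here, and 2 of the genes that this rule or the neighbour list gives are not reported here.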

Additional observations from a re-analysis of the deposited data

How the results depend on the processing

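Between DBA1 and 129/svj the called member probes kept their direction in all alternatives run and their call in all but those named here. After Benjamini-Hochberg adjustment of the methods' t-test the differences were 1.92 for Alox12 ILMN_2613908 (adjusted p = 0.064), 0.92 for Haao ILMN_2459219 (0.394), and -0.67 and -0.94 for Nosip ILMN_1225133 and ILMN_2621588 (0.138 and 0.412), and Haao ILMN_2607951 stayed called (0.0134). In the table of BALB/C, DBA1 and 129/svj alone, Haao ILMN_2459219 (0.88, limma, adjusted p = 0.0503), Nosip ILMN_1225133 (-0.65, 0.061) and Nosip ILMN_2621588 (-0.90, 0.076) missed the threshold, with 15818 probes tested. The cause was not tested. Haao ILMN_2600365 turned to 0.0032 with first arrays only.

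Without any 1 mouse in turn the differences spanned 1.75 to 2.05 (Alox12 ILMN_2613908), 0.73 to 1.12 (Haao ILMN_2459219), -5.36 to -5.0 (Haao ILMN_2607951), -0.77 to -0.61 (Nosip ILMN_1225133) and -1.20 to -0.68 (Nosip ILMN_2621588), all called. The uncalled ones changed sign, from -0.23 to 0.31 (1110069O07Rik), -0.062 to 0.20 (Alox12 ILMN_2587600) and -0.30 to 0.23 (Haao ILMN_2600365).

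Called probes between DBA1 and 129/svj numbered 508, 411 to 600 without 1 mouse, 213 with probes detected in all mice, which leaves fewer probes and drops Haao ILMN_2607951 and Alox12 ILMN_2587600, and 773 and 120 with the methods' t-test before and after adjustment. Between resistant and sensitive strains they numbered 841, 628 to 954 without 1 mouse, 421 with probes detected in all mice, 119 with strain as a random block and 37 with the adjusted methods' t-test. With the replicate block the counts were 801 and 479, and no member call changed. The numbers do not pair the mice: 3 of 15 mice correlated best with their own number. Most probes lie near background, where the offset compresses differences.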
